A study of Mus musculus with 6 samples.

Results

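The nuclear-encoded genes of the mitochondrial respiratory chain and of the ATP synthase were followed across mouse embryonic stem cells (mESCs) and 2 kinds of primordial germ cell-like cells (PGCLCs). Members were all genes whose symbol in the platform annotation begins with Nduf, Sdha to Sdhd, Uqcr, Cox and a digit, or Atp5. This rule found 116 probes for 88 of the 7312 genes with a named probe, and 86 of the 88 were detected often enough to be tested. The 86 comprise 38 genes of complex I, 7 of complex II, 6 of complex III, 21 of complex IV and 14 of complex V, the ATP synthase. Among them are 67 structural subunits and 19 assembly factors, which build a complex without staying in it. Ndufa4, named as a complex I gene, was counted with complex IV, and Ndufs5-ps, a symbol for a pseudogene copy, was kept with complex I. Ndufb4 and Atp5k were each detected on 1 array and were not tested. Subunits encoded by mitochondrial DNA have other symbols and were not analysed here.

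All 6 arrays carried RNA of male cells of the strain 129 x MF1 with a Nanog transgene. The mESCs (2 arrays) were kept on fibronectin in N2B27 medium with CHIR99021 at 3 µM, PD0325901 at 1 µM and LIF at 1000 U/ml. Both kinds of PGCLCs were collected on day 4 in GK15 medium, after passage through epiblast-like cells, which were moved to low-binding plates. For cytokine PGCLCs (2 arrays) the labels name LIF (1000 U/ml), EGF (50 ng/ml), SCF (100 ng/ml), BMP8A (500 ng/ml) and BMP4 (500 ng/ml). For Nanog PGCLCs (2 arrays) they name induction of the transgene, by doxycycline at 0.7 µg/ml. The protocol text with doxycycline stands on the labels of all 6 samples, so whether the other groups received it was not settled here. Medium and cell state differ together between mESCs and either kind of PGCLC, so their effects cannot be told apart. A sort before RNA extraction was not given in the sources used here. No label says that replicates came from separate cultures, so p-values measure only how far these arrays spread, which can be technical. RNA came from whole populations, in which fewer cells of a type and less RNA per cell cannot be told apart.

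The respiratory chain passes electrons from NADH (complex I) and succinate (complex II) through ubiquinone, complex III and cytochrome c to oxygen at complex IV, pumping protons that drive the ATP synthase. The redox centres and catalytic sites lie in core subunits. Supernumerary subunits surround them, and several exist as tissue-specific isoforms. Most of these genes are transcribed in the nucleus under factors such as NRF1, the GABP (ETS family) complex, YY1, Sp1 and the estrogen-related receptors (ERR), and germ cells and pluripotent cells are known to differ in how far they use respiration.

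Promoters of 6 members whose changes are described later are printed to show what such a regulatory window holds. They were chosen as 5 called members with a match to one of 5 searched motifs and 1, Ndufb2, with none. The sequences are those of RefSeq for the build GRCm38.p6, from 250 bases before to 50 bases after the annotated start, on the strand of the gene. They lie at chr15:82354242-82354541 on the minus strand (Ndufa6), chr5:115348909-115349208 on the minus strand (Cox6a1), chr13:114388045-114388344 on the minus strand (Ndufs4), chr19:43752951-43753250 on the minus strand (Cox15), chr2:73911277-73911576 on the minus strand (Atp5g3) and chr6:39592315-39592614 on the plus strand (Ndufb2). Capitals mark the motif matches.
Ndufa6: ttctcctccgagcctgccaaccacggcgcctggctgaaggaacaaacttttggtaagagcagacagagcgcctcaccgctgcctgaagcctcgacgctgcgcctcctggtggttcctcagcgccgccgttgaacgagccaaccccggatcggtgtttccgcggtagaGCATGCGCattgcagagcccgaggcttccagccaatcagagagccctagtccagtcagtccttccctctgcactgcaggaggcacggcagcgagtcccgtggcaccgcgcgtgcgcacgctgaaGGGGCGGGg
Cox6a1: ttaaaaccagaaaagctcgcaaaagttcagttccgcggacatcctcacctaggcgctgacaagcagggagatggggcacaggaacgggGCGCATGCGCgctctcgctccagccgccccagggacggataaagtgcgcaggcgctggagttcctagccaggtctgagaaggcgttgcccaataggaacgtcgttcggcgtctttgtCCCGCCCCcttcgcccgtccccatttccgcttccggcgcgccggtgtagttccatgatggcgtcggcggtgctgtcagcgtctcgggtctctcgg
Ndufs4: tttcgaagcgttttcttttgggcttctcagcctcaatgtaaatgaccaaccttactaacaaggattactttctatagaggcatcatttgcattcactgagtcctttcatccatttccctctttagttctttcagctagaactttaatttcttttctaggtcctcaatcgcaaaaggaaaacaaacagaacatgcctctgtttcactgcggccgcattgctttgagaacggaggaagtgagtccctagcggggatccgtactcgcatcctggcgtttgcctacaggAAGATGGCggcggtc
Cox15: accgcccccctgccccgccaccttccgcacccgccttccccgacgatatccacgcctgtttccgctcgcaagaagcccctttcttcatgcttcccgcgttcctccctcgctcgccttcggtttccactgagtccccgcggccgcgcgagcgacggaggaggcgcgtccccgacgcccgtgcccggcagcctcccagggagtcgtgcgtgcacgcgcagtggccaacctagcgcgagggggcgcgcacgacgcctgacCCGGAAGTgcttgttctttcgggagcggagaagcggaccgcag
Atp5g3: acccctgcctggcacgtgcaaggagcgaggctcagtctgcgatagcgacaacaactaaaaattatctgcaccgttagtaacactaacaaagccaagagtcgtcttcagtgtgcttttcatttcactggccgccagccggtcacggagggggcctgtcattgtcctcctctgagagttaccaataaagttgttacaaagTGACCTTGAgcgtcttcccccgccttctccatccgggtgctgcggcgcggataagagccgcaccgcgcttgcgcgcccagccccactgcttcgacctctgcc
Ndufb2: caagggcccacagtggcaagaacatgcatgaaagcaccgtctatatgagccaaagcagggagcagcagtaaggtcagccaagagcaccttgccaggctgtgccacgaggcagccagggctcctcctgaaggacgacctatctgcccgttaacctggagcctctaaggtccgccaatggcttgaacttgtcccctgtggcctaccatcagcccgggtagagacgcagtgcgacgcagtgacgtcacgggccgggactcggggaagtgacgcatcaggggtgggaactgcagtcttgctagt

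The motifs were searched as exact letters on both strands: GCATGCGC for NRF1, CCGGAAGT for ETS factors, AAGATGGC for YY1, GGGGCGGG for Sp1 and TCAAGGTCA for ERR. Counted from the annotated start, the Ndufa6 window held the NRF1 letters from position -83 and those of Sp1 from position 41. The Cox6a1 window held the NRF1 letters on both strands, overlapping from positions -162 and -160, and those of Sp1 on the minus strand from -45. The YY1 letters began at position 35 in Ndufs4, the ETS letters at 7 in Cox15 and the ERR letters at -52 on the minus strand in Atp5g3. These matches describe the windows and are not shown here to be bound.

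RefSeq entries were found for 73 of the 86 members, with 78 promoters. The NRF1 letters stood in 14.1% of the members' promoters, against 5.93% of 7180 promoters of tested genes and 2.71% of all 32851. The YY1 letters stood in 16.7%, against 5.10% and 2.75%. The ERR letters stood in 2.56% (Atp5g3 and Sdhd), against 0.320% and 0.423%. For the ETS letters the shares were 8.97%, 8.89% and 3.89%, and for those of Sp1 28.2%, 31.2% and 16.5%. Of the 11 members with the NRF1 letters, 3 were higher and 1 lower in Nanog PGCLCs than in mESCs, and of the 13 with the YY1 letters 4 were higher and 2 lower. In cytokine PGCLCs 3 and 1 of the former and 6 and 0 of the latter were higher and lower. Of the 22 members with the Sp1 letters, 8 and 2 were higher and lower in Nanog and 7 and 2 in cytokine PGCLCs. For the 7 with the ETS letters these were 2 and 1, then 3 and 0, and for the 2 with the ERR letters 0 and 1 in each. Over all tested genes, 28.2% were higher and 25.9% lower in Nanog PGCLCs, and 29.9% and 24.8% in cytokine PGCLCs. Differences between motifs in these counts were not tested.

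Median raw intensity lay between 226.2 and 294.3 over the 6 arrays, and 8788 to 10028 probes were detected on each. The probe used for a member was detected for 82 to 85 of the 86 members per array. Replicate arrays differed by a median of 0.070 (mESCs), 0.067 (cytokine PGCLCs) and 0.087 (Nanog PGCLCs) log2 units over the members, against 0.111, 0.101 and 0.113 over all genes. Of 8 germ cell markers, 7 were tested. Of these, 6 were called higher in Nanog PGCLCs than in mESCs and 7 in cytokine PGCLCs, where a call is an adjusted p below 0.05 from limma over 6823 genes. Detection of the 8 pluripotency markers held for 8 in mESCs, 8 in cytokine PGCLCs and 7 in Nanog PGCLCs. Against mESCs, 1 of these 8 was called higher and 3 lower in Nanog PGCLCs. In cytokine PGCLCs 0 were called higher and 3 lower by limma (at an unadjusted p below 0.05, 1 and 3). The erythroid globins Hba-x and Hbb-bh1, the 2 named genes of 6 mesoderm and blood markers, were detected only in cytokine PGCLCs, where their summed intensity was 1115.74 to 1174.95 against 90.9 to 116.3 in the other groups. Cdx2, the 1 named gene of 4 trophoblast markers, was also detected only there, at 345 to 364 against 54.5 to 94.1. The part of these cells in the results on cytokine PGCLCs was not tested.

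The respiratory genes as a whole changed little, and a limited set of them accounted for the larger changes. In Nanog PGCLCs, 28 of the 86 members were called higher than in mESCs and 11 lower. These are 32.6% and 12.8% of the members, against a background of 28.2% of all genes higher and 25.9% lower (54.1% in either direction). Their median log2 fold change was 0.16 (all genes, -0.00). Cytokine PGCLCs differed from mESCs at 29 members upward and 8 downward, or 33.7% and 9.30%, against a background of 29.9% and 24.8% (54.7% in either direction), with a median of 0.11 (all genes, 0.01). As reported, the share of members called higher was thus near the background in both, while the share called lower was smaller than it. In Nanog PGCLCs the former depended on the processing. With a variance trend or without background correction, 41 of the 86 members were higher, against 30.5% and 30.3% of all genes. From the authors' values 40 were higher, against 29.4%. Scaling to the same median gave 34, against 40.7%. In cytokine PGCLCs the same settings, in this order, gave 34, 34, 33 and 29, against 31%, 30.9%, 29.9% and 38.3%. The other full-data alternatives by gene gave 26 to 29 in Nanog PGCLCs.

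Between the 2 kinds of PGCLCs the differences were fewer. Nanog PGCLCs were higher than cytokine PGCLCs at 9 members and lower at 3, which is 10.5% and 3.49% against a background of 11.4% and 11.1% (22.6% in either direction). The median was -0.06 (all genes, -0.02). This split did not hold under other processing: 12 were higher and 12 lower without background correction, 13 and 12 with a variance trend, and 12 and 11 in the authors' table. A called change of at least 1.5-fold was seen at 10 members in Nanog PGCLCs and 11 in cytokine PGCLCs against mESCs, and at 1 between the PGCLCs. The comparisons against mESCs share the mESC arrays, so their values stand side by side without a test of their likeness.

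The split between directions depended on scaling. When arrays were scaled to the same median instead of quantile normalized, the median of all genes moved to 0.21 for Nanog PGCLCs and 0.16 for cytokine PGCLCs against mESCs. Members were then called higher at 34 and lower at 3 in Nanog PGCLCs, which is 91.9% of member calls against 71.8% as reported. In cytokine PGCLCs they were called higher at 29 and lower at 5, or 85.3% against 78.4%. Over all genes the shares of calls that were higher moved from 52.1% to 76.5% and from 54.6% to 72.9%. Relative to that shift, the members' median was 0.03 and -0.01. Between the PGCLCs, 8 members were higher and 1 lower under this scaling, 88.9% of calls against 75% as reported.

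**Figure D1:**
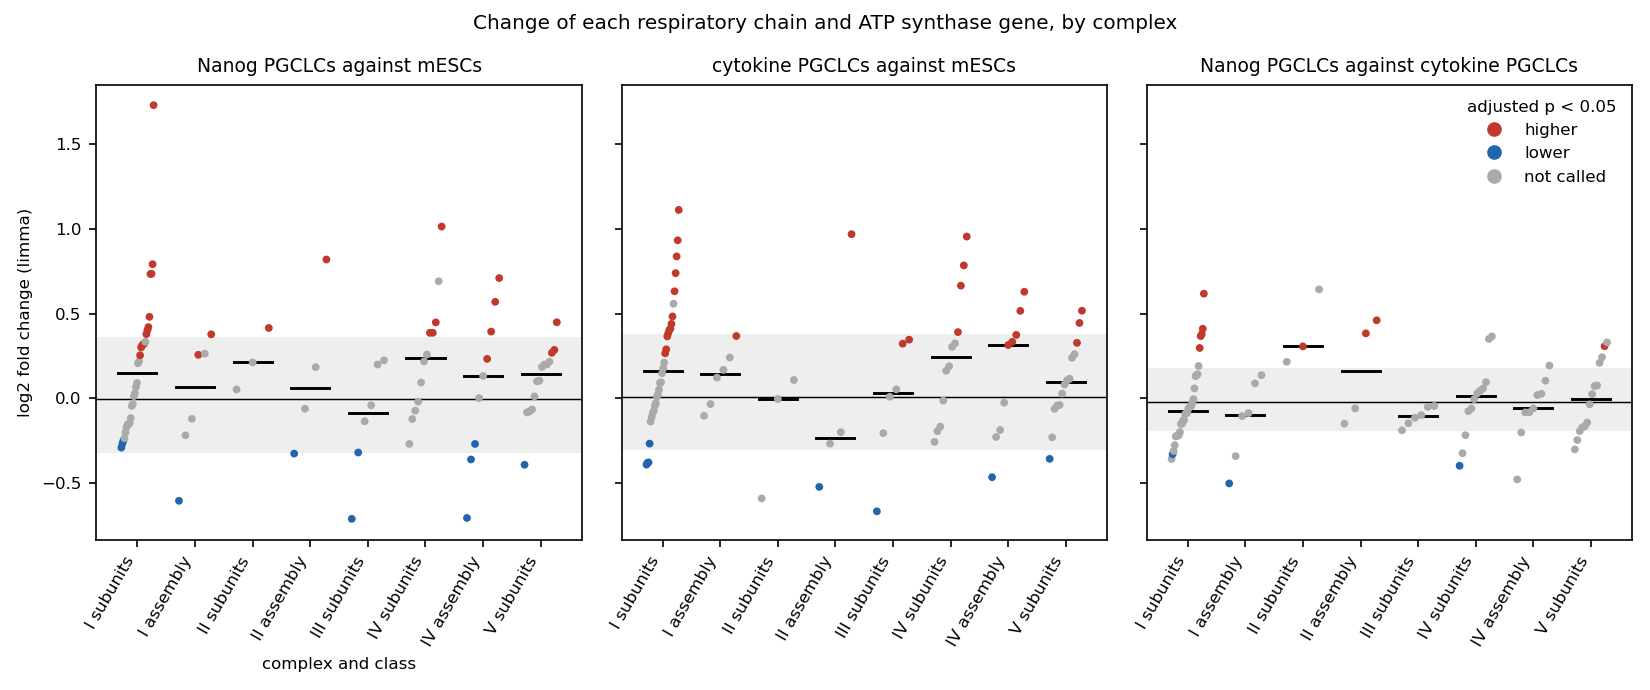
Log2 fold change of each member (point) in the 3 comparisons, grouped by complex and by subunits or assembly factors, with the group's median as a short bar. The grey band spans the middle quartiles of all 6823 genes and the thin line their median. Most members lie inside the band, and Ndufb2 stands highest in both comparisons with mESCs.

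Complex I, the NADH dehydrogenase, held the largest single increase, that of Ndufb2. Of its 38 tested genes, 15 rose and 4 fell in Nanog PGCLCs against mESCs (median 0.15), and 14 rose and 4 fell in cytokine PGCLCs (median 0.16). Higher calls made up 39.5% and 36.8% of these genes, against the 28.2% and 29.9% of all genes given above. Lower calls made up 10.5% in each, against 25.9% and 24.8%. Of the 27 supernumerary subunits among the 38, 12 rose and 3 fell in Nanog PGCLCs (44.4% and 11.1%). In cytokine PGCLCs 12 rose and 2 fell (44.4% and 7.41%). The largest changes in this class were of Ndufb2, Ndufa13, Ndufa6 and Ndufa7.

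Ndufb2, an accessory subunit of the membrane arm, was not detected in mESCs, whose arrays read 6.86 and 6.67 (normalized log2 intensity, as for all array values here). It read 7.86 and 7.90 (cytokine arrays) and 8.43 and 8.57 (Nanog arrays). All groups were separate, with mESCs lowest and Nanog PGCLCs highest. Because mESCs gave only a bound, the increase was at least 2.63-fold in Nanog PGCLCs (fitted log2 1.73 ± 0.104 SE, n = 2 per group, limma adjusted p = 6.82e-06) and at least 1.71-fold in cytokine PGCLCs (1.11, limma adjusted p = 6.34e-05). That bound sets the mean of the brighter group against the lowest signal of a detected probe on the mESC arrays. The probe passed the detection filter through the PGCLC arrays alone, so its p-values against mESCs rest on undetected mESC signal.

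Ndufa13, an accessory subunit also known as GRIM-19, read 12.45 and 12.41 (mESC arrays), 13.26 and 13.27 (cytokine arrays) and 13.17 and 13.27 (Nanog arrays). Both PGCLC groups lay above mESCs and overlapped each other. It was 1.73-fold higher in Nanog PGCLCs (log2 0.79 ± 0.0893 SE, limma adjusted p = 0.000167) and 1.79-fold higher in cytokine PGCLCs (0.84, limma adjusted p = 0.000123). Ndufa6, an accessory subunit of the LYR family, read 11.15 and 11.19, then 12.06 and 12.15, then 11.82 and 11.99 in the same order. Again mESCs were lowest, and the cytokine arrays lay just above the Nanog arrays. The increases were 1.66-fold (0.74 ± 0.0978, limma adjusted p = 0.000400) in Nanog and 1.91-fold (0.93, limma adjusted p = 0.000115) in cytokine PGCLCs.

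Ndufa7, an accessory subunit of the matrix arm, read 11.80 and 11.82 (mESC arrays), 12.56 and 12.54 (cytokine arrays) and 12.47 and 12.62 (Nanog arrays). The PGCLC groups overlapped above mESCs, with a 1.67-fold increase in each (log2 0.74 ± 0.0940 SE in both, limma adjusted p = 0.000320 and 0.000308). Ndufs4, whose loss in mice causes a Leigh-like disease, read 11.40 and 11.22, then 11.78 and 11.81, then 11.74 and 11.73. It rose by a log2 change of 0.42 ± 0.0970 SE in Nanog and 0.48 in cytokine PGCLCs (limma adjusted p = 0.00685 and 0.00339), and its 4 probes changed by 0.36 to 0.44 in the former and 0.19 to 0.51 in the latter. These 5 genes kept their calls against mESCs under every alternative run on them. Ndufb3, an accessory subunit of the membrane arm, rose by 0.63 ± 0.115 SE in cytokine PGCLCs (limma adjusted p = 0.00202) and by 0.48 in Nanog PGCLCs (limma adjusted p = 0.00795), and the latter call was lost without Nanog replicate 2 (0.37, limma adjusted p = 0.0518).

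The remaining increases among the supernumerary subunits were below 0.45 and rested more on single arrays. Ndufc1, Ndufab1 (the mitochondrial acyl carrier protein) and Ndufa3 rose by 0.30 to 0.32 in Nanog and 0.37 to 0.41 in cytokine PGCLCs. The second probe of Ndufc1 changed by 0.06 and 0.11, and with the mean of both neither of its calls held (0.18 and 0.25). Ndufab1 has a named pseudogene copy in RefSeq, with which its probes could share signal. Each lost the call without mESC replicate 2 in Nanog PGCLCs (Ndufc1 0.26, Ndufab1 0.34, Ndufa3 0.22) and without cytokine replicate 1 in cytokine PGCLCs (0.32, 0.33 and 0.38). Ndufv3, Ndufa1 and Ndufb5 rose in Nanog PGCLCs by 0.40, 0.38 and 0.32, were not called in cytokine PGCLCs (0.02, 0.01 and -0.09), and lost the call without mESC replicate 2 (0.32, 0.35 and 0.38). Ndufa2, Ndufa9 and Ndufs5-ps were called higher in cytokine PGCLCs (0.44, 0.27 and 0.29), and Ndufa9 and Ndufs5-ps lost the call without mESC replicate 2 (0.18 and 0.28), Ndufa9 also under cyclic loess (0.15) and median scaling (0.17). Ndufa2 lost it without mESC replicate 1 (0.35, limma adjusted p = 0.0507).

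Decreases in these subunits were small. Ndufb10, a membrane arm subunit with disulfide bonds, read 8.73 and 8.63 (mESC arrays), 8.27 and 8.34 (cytokine arrays) and 8.46 and 8.41 (Nanog arrays). It fell by 0.38 ± 0.0917 SE in cytokine PGCLCs (limma adjusted p = 0.00847) and by 0.25 in Nanog PGCLCs (limma adjusted p = 0.0486), and its second probe fell by 0.85 and 0.71. The call in Nanog PGCLCs was lost without any 1 of the 6 arrays (-0.30 to -0.20), and that in cytokine PGCLCs without cytokine replicate 1 (-0.34, limma adjusted p = 0.0558). Ndufb7 read 8.72 and 8.75, then 8.75 and 8.57, then 8.40 and 8.49, and Ndufa5 read 11.66 and 11.60, then 11.44 and 11.55, then 11.35 and 11.38, with the Nanog arrays lowest for both. They fell by 0.29 and 0.27 in Nanog PGCLCs, and both lost the call without either mESC or either Nanog array (-0.33 to -0.25 and -0.29 to -0.24). Under median scaling Ndufb10 and Ndufb7 no longer fell in Nanog PGCLCs (0.05 and 0.01), and Ndufb10 was no longer called in cytokine PGCLCs (-0.13). The second probe of Ndufa5 changed by -0.0090 in Nanog PGCLCs, and the mean of both gave -0.14 (not called). Ndufa8 read 10.82 and 10.87, then 10.56 and 10.59, then 10.89 and 10.85, with the cytokine arrays apart below the rest. It fell by 0.27 in cytokine PGCLCs and lost that call without any 1 of the mESC or cytokine arrays (-0.29 to -0.24).

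The flavin and iron-sulfur centres of complex I lie in core subunits, though not each core subunit holds one. Of the 5 tested, 1 rose and 0 fell in Nanog PGCLCs by limma (at an unadjusted p below 0.05, 1 and 1), and 1 rose and 2 fell in cytokine PGCLCs. The 20% higher and 0 lower in Nanog PGCLCs stand against 28.2% and 25.9% of all genes. The 20% higher and 40% lower in cytokine PGCLCs stand against 29.9% and 24.8%. Ndufv2, an iron-sulfur protein of the NADH-oxidizing module, read 11.96 and 11.92 (mESC arrays), 11.58 and 11.52 (cytokine arrays) and 11.70 and 11.79 (Nanog arrays). Cytokine arrays were lowest and mESC arrays highest, with no overlap. It fell by 0.39 ± 0.0904 SE in cytokine PGCLCs (limma adjusted p = 0.00693), and its change in Nanog PGCLCs was -0.20 (limma adjusted p = 0.0932).

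Ndufs8, an iron-sulfur subunit of the quinone module, followed the same order of groups, at 10.98 and 10.90, then 10.54 and 10.59, then 10.73 and 10.69. It fell by 0.38 ± 0.0890 SE in cytokine PGCLCs (limma adjusted p = 0.00759), and in Nanog PGCLCs its change was -0.24 (limma adjusted p = 0.0531). Ndufs7, its neighbour in the quinone module, read 11.03 and 11.15, then 11.51 and 11.48, then 11.40 and 11.30. All PGCLC arrays lay above mESCs, by 0.40 ± 0.0937 SE in cytokine PGCLCs (limma adjusted p = 0.00705) and 0.25 in Nanog PGCLCs (limma adjusted p = 0.0481). The 3 calls in cytokine PGCLCs held under every alternative run, and that of Ndufs7 in Nanog PGCLCs was lost without any 1 of the 6 arrays (0.19 to 0.31). Ndufv1, the flavin subunit, and Ndufs3 were not called (0.09 and -0.15 in Nanog PGCLCs, -0.04 and 0.21 in cytokine PGCLCs).

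Of the 6 tested assembly factors of complex I, 2 were called higher and 1 lower in Nanog PGCLCs, and 1 higher in cytokine PGCLCs. The first 2 counts are 33.3% and 16.7%, against 28.2% and 25.9% of all genes, and the last is 16.7%, against 29.9%. Ndufaf4, which acts with Ndufaf3 in early assembly, read 10.47 and 10.64 (mESC arrays), 10.46 and 10.44 (cytokine arrays) and 9.98 and 9.92 (Nanog arrays). The Nanog arrays stood apart below the other 4. It fell by 0.60 ± 0.0966 SE in Nanog PGCLCs against mESCs (limma adjusted p = 0.00106), but its second probe, at 7.83 and 7.85, then 8.50 and 8.58, then 8.50 and 8.28, rose by 0.55 in the same comparison. The direction for the gene therefore depends on the probe, and the mean of both probes gave -0.03. Ndufaf7, a methyltransferase that acts on a core subunit, read 8.18 and 7.89, then 8.15 and 8.40, then 8.40 and 8.43. Ndufaf2 read 9.54 and 9.47, then 9.65 and 9.70, then 9.81 and 9.71, and Ndufaf1 read 9.69 and 9.39, then 9.89 and 9.93, then 9.76 and 9.85. Nanog arrays lay above mESCs for each of the 3. Ndufaf7 and Ndufaf2 were called higher in Nanog PGCLCs (0.38 and 0.26) and Ndufaf1 in cytokine PGCLCs (0.37). Without mESC replicate 2 these were 0.23, 0.22 and 0.22, and none was called.

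**Figure D2:**
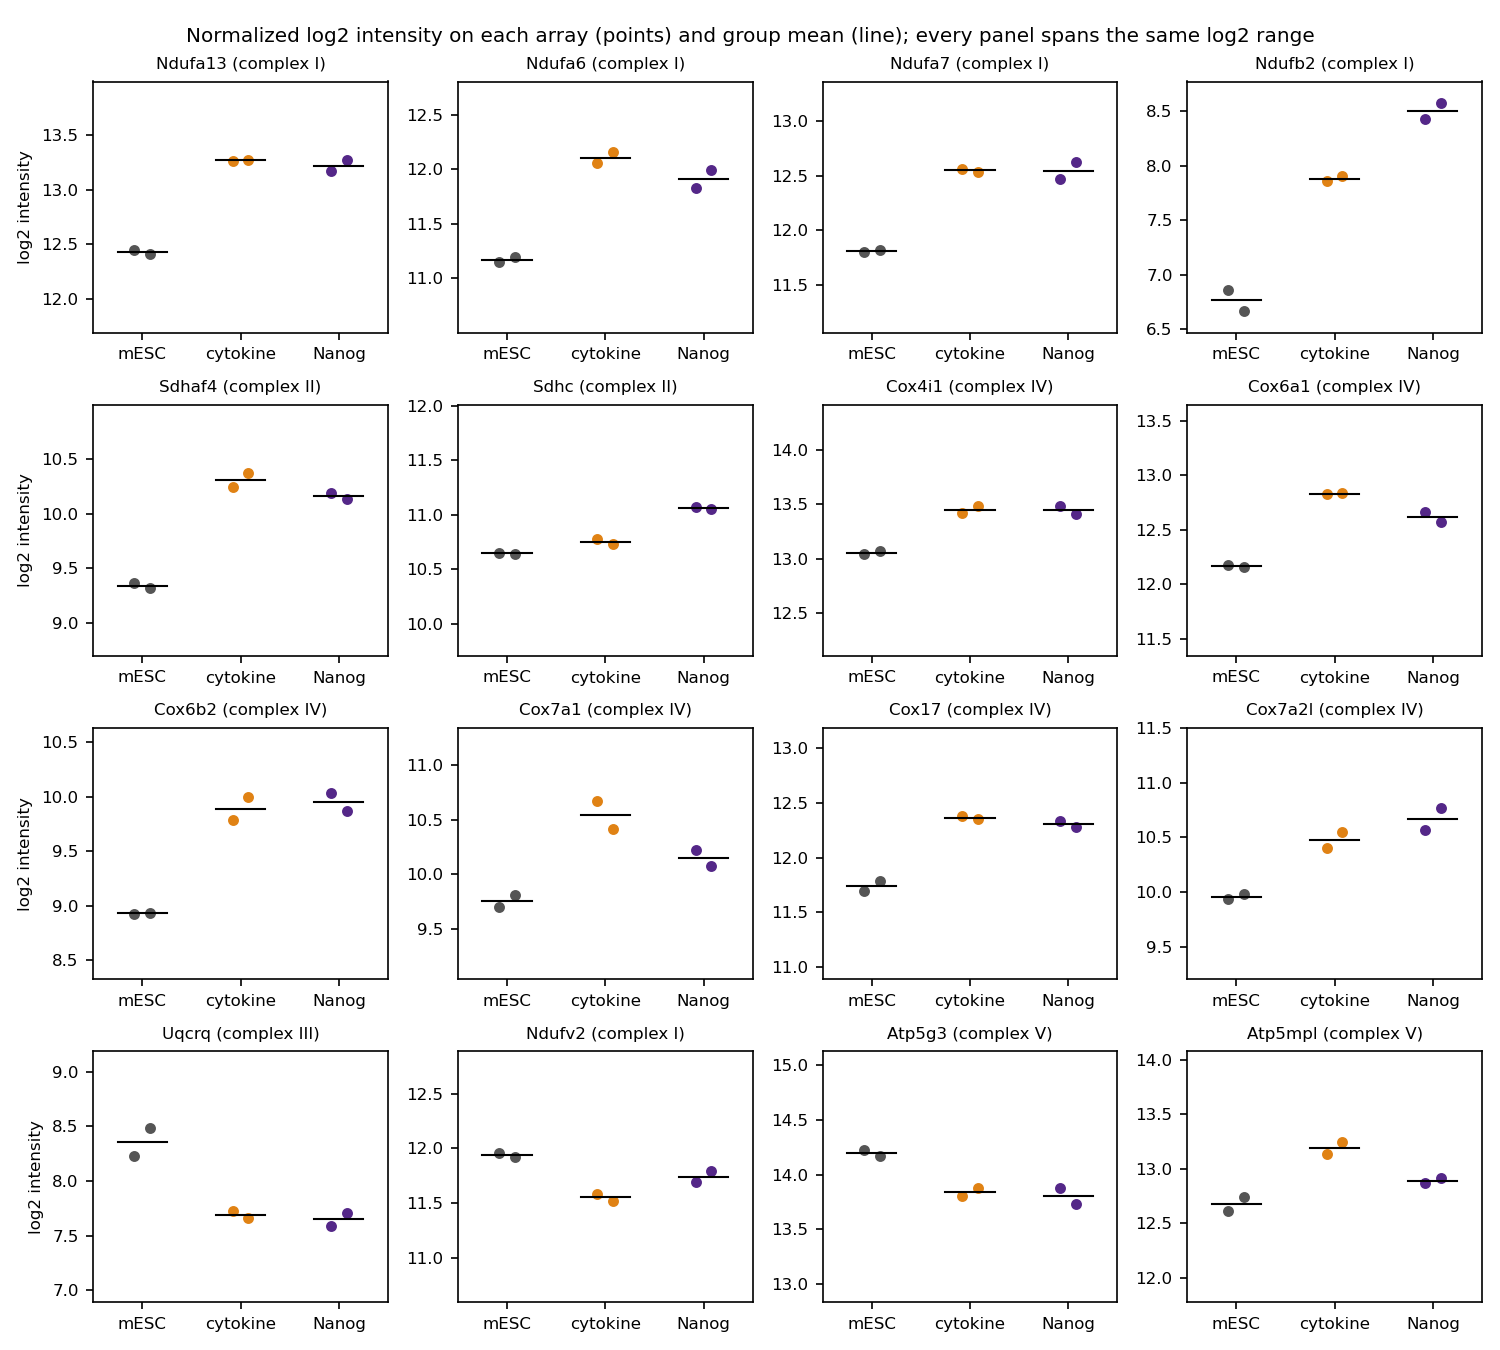
Normalized log2 intensity of 16 members on each array (points) with the group mean (line), for mESCs, cytokine PGCLCs and Nanog PGCLCs. Every panel spans the same log2 range around its own centre. Ndufa13, Ndufa6, Ndufa7 and Sdhaf4 show mESCs about 0.7 to 1 log2 unit below both PGCLC groups, and Uqcrq and Atp5g3 show the opposite order.

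Complex II, succinate dehydrogenase, also works in the tricarboxylic acid cycle. Of its 7 tested genes, 2 rose and 1 fell in Nanog PGCLCs against mESCs (median 0.18), and 1 rose and 1 fell in cytokine PGCLCs (median -0.20). These are 28.6% and 14.3% in Nanog PGCLCs, against 28.2% and 25.9% of all genes. In cytokine PGCLCs they are 14.3% and 14.3%, against 29.9% and 24.8%. The largest change was of Sdhaf4, which helps to join the flavoprotein to the iron-sulfur subunit. It read 9.36 and 9.32 (mESC arrays), 10.25 and 10.38 (cytokine arrays) and 10.19 and 10.13 (Nanog arrays). All PGCLC arrays lay above mESCs, with the cytokine arrays just above the Nanog arrays. It rose 1.77-fold in Nanog (log2 0.82 ± 0.0930 SE, limma adjusted p = 0.000172) and 1.96-fold in cytokine PGCLCs (0.97, limma adjusted p = 7.31e-05), and both calls held under every alternative run.

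Sdhc, a membrane anchor, read 10.65 and 10.64 (mESC arrays), 10.78 and 10.73 (cytokine arrays) and 11.07 and 11.05 (Nanog arrays). The Nanog arrays were highest and apart from both other groups. It rose by 0.42 ± 0.0864 SE in Nanog PGCLCs against mESCs (limma adjusted p = 0.00410), under every alternative run, and its change in cytokine PGCLCs was 0.11 (limma adjusted p = 0.314). Sdhb, the iron-sulfur subunit, was not called in any comparison by the probe used (0.21 in Nanog PGCLCs), but its other 2 probes were called in opposite directions there (-0.33 and 0.56). The used probe read 9.91 and 10.10, then 10.06 and 9.94, then 10.23 and 10.21. The falling probe read 7.35 and 7.68, then 7.10 and 7.14, then 7.21 and 7.16, and the rising one 9.10 and 9.34, then 9.15 and 9.57, then 9.74 and 9.81. Sdhd, the other anchor, varied widely between replicates, at 7.91 and 7.06 in mESCs and 7.03 and 8.05 in Nanog PGCLCs, and was not called. Sdhaf2, which attaches the flavin, read 8.35 and 8.55, then 8.23 and 8.13, then 8.09 and 8.16, and fell by 0.33 in Nanog PGCLCs, a call lost without mESC replicate 2 (-0.23) or either Nanog array (-0.29 and -0.36). Under median scaling its change was -0.015, and under cyclic loess -0.24, neither called.

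Complex III, the cytochrome bc1 complex, had 6 tested subunits. In Nanog PGCLCs 0 rose and 2 fell against mESCs by limma (at an unadjusted p below 0.05, 1 and 2), with a median of -0.09. In cytokine PGCLCs 2 rose and 1 fell, with a median of 0.03. The 0 higher and 33.3% lower in Nanog PGCLCs stand against 28.2% and 25.9% of all genes. The 33.3% higher and 16.7% lower in cytokine PGCLCs stand against 29.9% and 24.8%. Uqcrq, a small subunit close to the quinone site, read 8.23 and 8.49 (mESC arrays), 7.73 and 7.66 (cytokine arrays) and 7.59 and 7.71 (Nanog arrays). The PGCLC groups overlapped below mESCs. It fell by 0.71 ± 0.112 SE in Nanog (0.611-fold, limma adjusted p = 0.000990) and by 0.67 in cytokine PGCLCs (0.630-fold, limma adjusted p = 0.00135). Of the 11 decreases called in Nanog PGCLCs over all complexes, Uqcrq was the one that held under every alternative run.

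Uqcr10, another small subunit, read 13.48 and 13.51, then 13.29 and 13.29, then 13.19 and 13.16, in a descending order of groups without overlap. It fell by 0.32 ± 0.0858 SE in Nanog PGCLCs (limma adjusted p = 0.0137). That call was lost without mESC replicate 2 (-0.31) or Nanog replicate 2 (-0.31), and under median scaling (-0.27). Uqcrc2, a core protein, read 11.94 and 11.84, then 12.22 and 12.25, then 12.15 and 12.03. Uqcrh, the hinge protein that contacts cytochrome c1, read 12.56 and 12.55, then 12.87 and 12.89, then 12.70 and 12.86. The cytokine arrays were highest for both, which rose by 0.35 and 0.32 in cytokine PGCLCs. Both calls were lost without mESC replicate 2 (0.30 and 0.32) or either cytokine array (0.33 and 0.37 for Uqcrc2, 0.31 and 0.33 for Uqcrh), and that of Uqcrh also without mESC replicate 1 (0.34). Neither gene was called under cyclic loess (0.24 for Uqcrc2 and 0.26 for Uqcrh) or median scaling (0.26 and 0.25). Uqcrh has a named pseudogene copy.

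Complex IV, cytochrome c oxidase, is the complex with most tissue-specific isoforms. Of its 21 tested genes, 8 rose and 3 fell in Nanog PGCLCs (median 0.22), and 9 rose and 1 fell in cytokine PGCLCs (median 0.30). These are 38.1% and 14.3% in Nanog PGCLCs, against 28.2% and 25.9% of all genes. In cytokine PGCLCs they are 42.9% and 4.76%, against 29.9% and 24.8%. Of the structural subunits, 4 of 12 (33.3%) rose in each kind of PGCLC and 0 fell by limma (at an unadjusted p below 0.05, 0 of 12 in Nanog and 1 in cytokine PGCLCs were lower). Levels of different probes cannot be set against each other on an array, so isoforms are compared by their changes.

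Cox6b2, known as the testis isoform of subunit 6b, changed most among the called subunits. It read 8.93 and 8.94 (mESC arrays), 9.78 and 9.99 (cytokine arrays) and 10.03 and 9.87 (Nanog arrays). The PGCLC groups overlapped above mESCs, 2.02-fold in Nanog (log2 1.02 ± 0.108 SE, limma adjusted p = 0.000123) and 1.94-fold in cytokine PGCLCs (0.96, limma adjusted p = 0.000163), under every alternative run. Its ubiquitous partner Cox6b1 read 12.43 and 12.26, then 12.72 and 12.57, then 12.45 and 12.20. Nanog and mESC arrays overlapped and cytokine arrays lay above both, with changes of -0.02 in Nanog and 0.30 in cytokine PGCLCs that were not called (limma adjusted p = 0.902 and 0.0604). The difference between the 2 isoforms' changes was not tested.

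Cox7a1, known as the heart and muscle isoform of subunit 7a, read 9.71 and 9.81 (mESC arrays), 10.68 and 10.42 (cytokine arrays) and 10.22 and 10.08 (Nanog arrays). The groups were separate, with cytokine PGCLCs highest. It rose 1.72-fold in cytokine PGCLCs (log2 0.79 ± 0.116 SE, limma adjusted p = 0.000692), under every alternative run. In Nanog PGCLCs it rose 1.31-fold (0.39, limma adjusted p = 0.0218), a call lost without mESC replicate 1 (0.33) or Nanog replicate 1 (0.32). Cox7a2, its widely expressed partner, read 8.48 and 8.65, then 8.29 and 8.33, then 8.56 and 8.76 and was not called in any comparison (0.09 in Nanog and -0.26 in cytokine PGCLCs). The 1 muscle marker with a named probe of 6, Des, was not called either (0.14 and 0.01).

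Cox6a1, the ubiquitous isoform of subunit 6a, read 12.18 and 12.16 (mESC arrays), 12.83 and 12.83 (cytokine arrays) and 12.66 and 12.57 (Nanog arrays). The groups were separate, with cytokine PGCLCs highest. It rose by 0.67 ± 0.0885 SE in cytokine (limma adjusted p = 0.000390) and by 0.45 in Nanog PGCLCs (limma adjusted p = 0.00314), and its second probe rose by 0.66 and 0.53. Cox4i1, the ubiquitous isoform of subunit 4, read 13.04 and 13.07, then 13.42 and 13.48, then 13.48 and 13.41, and rose by 0.39 ± 0.0887 SE in both (limma adjusted p = 0.00664 in Nanog and 0.00631 in cytokine PGCLCs). All 4 calls held under every alternative run.

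Cox4i2, the isoform induced by low oxygen in other tissues, was dim, at 6.84 and 7.30, then 6.97 and 6.79, then 6.86 and 6.74. It was detected on 1 mESC array, 1 cytokine array and no Nanog array, and was not called (-0.27 in Nanog and -0.19 in cytokine PGCLCs). Ndufa4, which has a hypoxia-induced paralog, read 13.01 and 13.17, then 13.07 and 13.08, then 12.94 and 13.09, with overlap of all groups and changes of -0.07 and -0.01. Subunits without named isoforms here, Cox5a, Cox5b, Cox6c and Cox7b, were not called. Cox7b, a dim probe, read 7.05 and 6.37 in mESCs.

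Of the 9 assembly factors of complex IV, 4 were called higher and 3 lower in Nanog PGCLCs (77.8%, against 54.1% of all genes), and 5 higher and 1 lower in cytokine PGCLCs (66.7%, against 54.7%). No test compared classes of this size. Cox7a2l, which ties complexes III and IV into supercomplexes, read 9.93 and 9.98 (mESC arrays), 10.40 and 10.55 (cytokine arrays) and 10.56 and 10.77 (Nanog arrays). The Nanog arrays lay just above the cytokine arrays and both lay above mESCs. It rose by 0.71 ± 0.107 SE in Nanog (limma adjusted p = 0.000756) and by 0.52 in cytokine PGCLCs (limma adjusted p = 0.00392).

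Cox17, the copper chaperone that feeds the copper centres, read 11.69 and 11.78, then 12.38 and 12.35, then 12.34 and 12.28. It rose by 0.57 ± 0.0895 SE in Nanog (limma adjusted p = 0.000970) and 0.63 in cytokine PGCLCs (limma adjusted p = 0.000565). Cox15, which makes heme A, read 8.44 and 8.50, then 8.86 and 8.84, then 8.86 and 8.87, and rose by 0.39 ± 0.0870 SE and 0.38 (limma adjusted p = 0.00551 and 0.00705). All PGCLC arrays lay above mESCs for Cox17 and Cox15, and the calls of these 3 factors held under every alternative run.

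The decreases were Cox19, another protein of copper handling, Cox10, which makes the heme O precursor of heme A, and Cox20, a chaperone of a mitochondrially encoded subunit. Cox19 read 8.96 and 9.11, then 8.53 and 8.62, then 8.65 and 8.71, below mESCs in both groups. It fell by 0.47 ± 0.0970 SE in cytokine (limma adjusted p = 0.00414) and by 0.36 in Nanog PGCLCs (limma adjusted p = 0.0138), the latter lost without mESC replicate 2 (-0.28) or Nanog replicate 1 (-0.34). Under median scaling both calls were lost (-0.25 in cytokine and -0.08 in Nanog PGCLCs). Cox20 read 7.99 and 8.76, then 7.97 and 8.33, then 7.69 and 7.65. It was called lower in Nanog PGCLCs (-0.71), but without mESC replicate 2 the change was -0.32 and was not called, and under median scaling it was -0.38 and not called. Cox10 read 10.84 and 10.72, then 10.61 and 10.57, then 10.57 and 10.45, and fell by 0.27 in Nanog PGCLCs, a call lost without any 1 of the 6 arrays (-0.33 to -0.21) and under median scaling (-0.14). Cox14 rose by 0.23 in Nanog and 0.32 in cytokine PGCLCs and Cox11, which inserts copper, by 0.33 in cytokine PGCLCs, and each call was lost without either mESC array (0.23 for both, 0.31 for both, and 0.30 and 0.36).

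**Figure D3:**
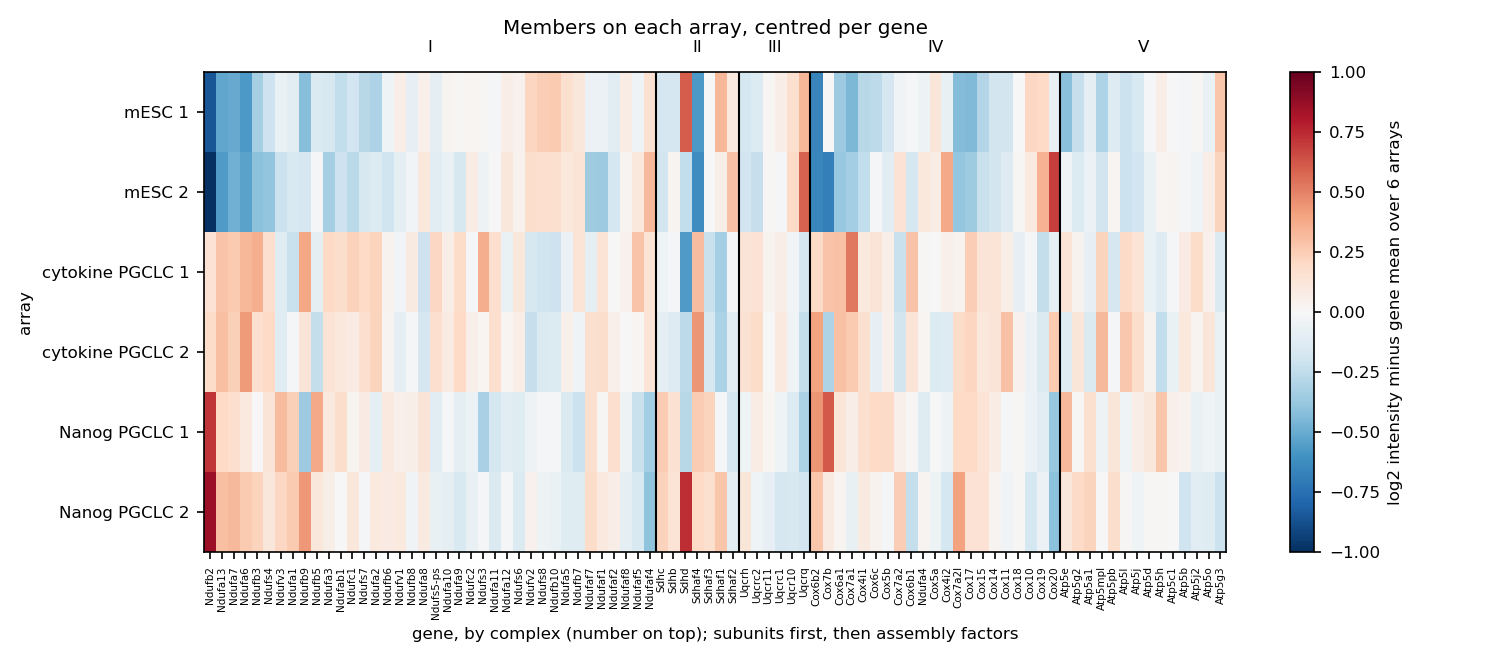
Log2 intensity of the 86 tested members (columns, by complex) on the 6 arrays (rows), minus each gene's mean over the arrays. Red is above and blue below the mean, and colours saturate at 1 log2 unit. Columns that are blue in both mESC rows, such as Ndufb2, Ndufa13, Sdhaf4 and Cox6b2, are the members that rose in both kinds of PGCLC.

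Complex V is the ATP synthase. Of its 14 tested genes, 3 rose and 1 fell in each kind of PGCLC, with medians of 0.15 (Nanog) and 0.09 (cytokine). The share called was 28.6% in each, below the 54.1% and 54.7% of all genes. In the F1 head, 2 of 5 genes rose in Nanog PGCLCs, Atp5e and Atp5a1, and 0 of 5 were called in cytokine PGCLCs by limma (at an unadjusted p below 0.05, also 0). Atp5a1, the alpha subunit, read 10.17 and 10.21 (mESC arrays), 10.18 and 10.12 (cytokine arrays) and 10.43 and 10.49 (Nanog arrays). The Nanog arrays lay above the other 4, by 0.27 ± 0.0886 SE against mESCs (limma adjusted p = 0.0318), a call lost without any 1 of the mESC or Nanog arrays (0.24 to 0.30). Atp5e, the epsilon subunit, read 6.40 and 6.78, then 6.96 and 6.71, then 7.15 and 6.94. It was called higher in Nanog PGCLCs (0.45) but was not detected in mESCs and gave no bound above 1. Without mESC replicate 1 or Nanog replicate 1 its call was lost (0.27 and 0.34), as it was in the authors' table (0.14). Atp5b, the catalytic beta subunit, was not called (-0.07 and 0.11).

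The c-ring of the membrane part is encoded by several genes with the same mature protein, of which Atp5g2 and Atp5g3 were tested, and they changed in opposite directions. Atp5g3 read 14.23 and 14.17 (mESC arrays), 13.80 and 13.88 (cytokine arrays) and 13.88 and 13.73 (Nanog arrays), and Atp5g2 read 10.47 and 10.56, then 10.74 and 10.82, then 10.72 and 10.89. For both genes the PGCLC groups overlapped each other and lay apart from mESCs, below them for Atp5g3 and above them for Atp5g2. Atp5g3 fell by 0.39 ± 0.0953 SE in Nanog (limma adjusted p = 0.00875) and by 0.36 in cytokine PGCLCs (limma adjusted p = 0.0134). The first call was lost without Nanog replicate 2 (-0.32) and the second without mESC replicate 1 (-0.34) or cytokine replicate 1 (-0.32). Atp5g2 rose by 0.29 ± 0.101 SE in Nanog PGCLCs (limma adjusted p = 0.0415), lost without any 1 array but Nanog replicate 1 (0.20 to 0.33), and its change in cytokine PGCLCs was 0.26 (limma adjusted p = 0.0566).

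Among the other stator and membrane subunits, 3 were called higher in cytokine PGCLCs by the probe used, of which Atp5mpl held. Atp5mpl, a small membrane protein of the complex, read 12.61 and 12.74 (mESC arrays), 13.14 and 13.24 (cytokine arrays) and 12.87 and 12.91 (Nanog arrays). The groups were separate, with cytokine PGCLCs highest, and the increase was 0.52 ± 0.0953 SE (limma adjusted p = 0.00218) under every alternative run. In Nanog PGCLCs it was 0.22 (limma adjusted p = 0.0849). Atp5l, subunit g, read 12.68 and 12.68, then 13.09 and 13.16, then 12.85 and 12.91. It rose by 0.45 in cytokine PGCLCs, but its second probe changed by -0.11, the mean of both gave 0.17 (not called), and the gene has a named pseudogene copy.

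Atp5j, coupling factor 6, gave opposite calls from its 2 probes in cytokine PGCLCs. The probe used read 12.62 and 12.58, then 12.91 and 12.95, then 12.84 and 12.73, and rose by 0.33 ± 0.0904 SE (limma adjusted p = 0.0153). The dimmer probe read 8.53 and 8.65, then 7.79 and 7.46, then 7.36 and 7.45, and fell by 0.97. The mean of both was -0.32, so no direction is given for this gene. The 22 members with several probes gave 1 sign from all of them in 18 (Nanog against mESCs), 14 (cytokine against mESCs) and 16 (Nanog against cytokine PGCLCs).

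The direct comparison of Nanog with cytokine PGCLCs asks where transgene induction and cytokines led to different levels. Over all genes, 11.4% were higher and 11.1% lower in Nanog PGCLCs. In complex II, 3 of 7 genes (42.9%) were higher and 0 lower by limma (median 0.31), and at an unadjusted p below 0.05 also 3 and 0. These were Sdhc (0.31 ± 0.0864 SE, limma adjusted p = 0.0373) and the iron-sulfur assembly factors Sdhaf1 (0.46 ± 0.131, limma adjusted p = 0.0380) and Sdhaf3 (0.38 ± 0.0881, limma adjusted p = 0.0177). Sdhaf1 read 8.74 and 8.46 (mESC arrays), 8.07 and 8.09 (cytokine arrays) and 8.40 and 8.69 (Nanog arrays), and Sdhaf3 read 8.69 and 8.70, then 8.46 and 8.53, then 8.91 and 8.85. For both, cytokine PGCLCs were lowest and apart from the other groups. Against mESCs, Sdhaf1 was called lower in cytokine PGCLCs (-0.52, limma adjusted p = 0.00999) and Sdhaf3 was not called (-0.20). All 3 calls between the PGCLCs were lost without either cytokine array (0.34 and 0.29 for Sdhc, 0.45 and 0.47 for Sdhaf1, 0.35 and 0.42 for Sdhaf3). That of Sdhc was also lost without either mESC array (0.30 for both) or either Nanog array (0.30 and 0.32), and that of Sdhaf3 without either Nanog array (0.35 and 0.42). For Sdhaf1 the call was also lost without Nanog replicate 2 (0.32), under median scaling (0.51) and with the replicate number as a block (0.46). Sdhaf1 moved to 0.10 without mESC replicate 1, an array in neither group. Without that array, as without Nanog replicate 2, its second probe was the brighter and stood for the gene, so these 2 values read another probe. The call of Sdhaf1 in cytokine PGCLCs against mESCs was lost without mESC replicate 1 too (-0.63, second probe) and under median scaling (-0.27). The second probe of Sdhaf1 differed by 0.11 between the PGCLCs, and the mean of both gave 0.28 (limma adjusted p = 0.126), which was not called.

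In complex I, 5 genes were higher and 2 lower in Nanog than in cytokine PGCLCs (13.2% and 5.26%, against 11.4% and 11.1% of all genes). Ndufb2 was higher by 0.62 ± 0.104 SE (1.54-fold, limma adjusted p = 0.00479), and of the 12 calls in this comparison it was the one that held under every alternative run on it. Ndufb5, a membrane arm subunit, read 9.34 and 9.46 (mESC arrays), 9.39 and 9.24 (cytokine arrays) and 9.86 and 9.59 (Nanog arrays). Ndufv3, a subunit beside the flavin site, read 11.32 and 11.17, then 11.26 and 11.27, then 11.70 and 11.59. Nanog arrays were highest for both, by 0.41 ± 0.119 SE (limma adjusted p = 0.0402) and 0.38 ± 0.0968 (limma adjusted p = 0.0264).

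Ndufa1, a small X-linked subunit, was higher by 0.37, and Ndufa8 by 0.30. Ndufa11, a membrane arm subunit, read 10.61 and 10.63, then 10.80 and 10.80, then 10.46 and 10.48 and was lower by 0.33 ± 0.0857 SE (limma adjusted p = 0.0285). Its groups did not overlap, with cytokine PGCLCs highest and Nanog PGCLCs lowest. Ndufaf4 was lower by 0.50 (limma adjusted p = 0.00848). Without cytokine replicate 1 none of these 6 genes was called, at 0.49 for Ndufb5, 0.38 for Ndufv3, 0.27 for Ndufa1, 0.28 for Ndufa8, -0.33 for Ndufa11 and -0.50 for Ndufaf4.

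Complexes III and IV held few calls between the PGCLCs, a comparison in which 22.6% of all genes were called. In complex IV the share was 4.76%. Complex III has too few genes for its count to be set apart from the background, and no test was run. Of 6 complex III genes 0 were called by limma (at an unadjusted p below 0.05, also 0), and all 6 changes lay between -0.19 and -0.04. In complex IV, Cox7a1 was lower in Nanog PGCLCs by 0.40 ± 0.116 SE (limma adjusted p = 0.0414), lost without any 1 of the cytokine or Nanog arrays (-0.53 to -0.27), and the other 20 genes were not called. In complex V, Atp5a1 was higher by 0.31 ± 0.0886 SE (limma adjusted p = 0.0398), a call lost without any 1 of the 6 arrays (0.28 to 0.34). The other 13 genes of complex V were not called, which leaves 7.14% of its tested genes called.

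**Figure D4:**
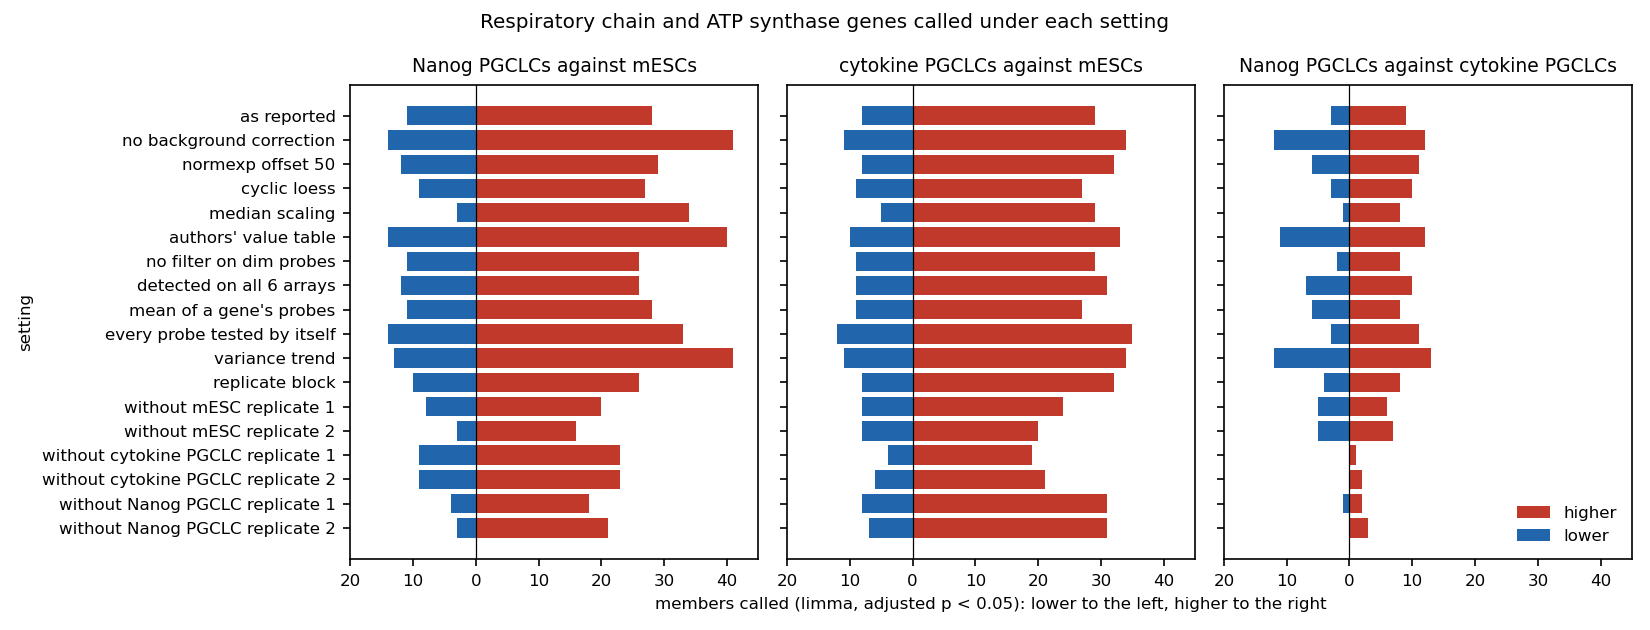
Number of members called higher (right, red) and lower (left, blue) at a limma adjusted p below 0.05, as reported and under each alternative, in the 3 comparisons. Against mESCs, higher calls outnumber lower calls under every setting drawn, and between the PGCLCs leaving out 1 PGCLC array leaves 1 to 3 higher and 0 to 1 lower.

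Genes that work with the complexes were followed in 8 further lists, whose counts stand against a background of 28.2% of all genes higher and 25.9% lower in Nanog PGCLCs and 29.9% and 24.8% in cytokine PGCLCs. Between the PGCLCs the background was 11.4% and 11.1%. Some list genes were not detected in mESCs, and an increase of such a gene over mESCs is only a bound. Detected there were 11 of 13 electron carrier genes, 27 of 29 assembly factors and 17 of 20 tricarboxylic acid cycle genes. The same held for 14 of 15 genes of mitochondrial DNA and RNA handling, 15 of 16 of protein import and 6 of 8 hypoxia-induced genes. Of 13 tested genes for cytochrome c, coenzyme Q synthesis and electron transfer flavoprotein, 6 were higher and 1 lower in Nanog PGCLCs (median 0.22), and 7 and 1 in cytokine PGCLCs (median 0.35). Coq9, which binds quinone intermediates, rose by 0.81 and 0.89 (Nanog and cytokine, limma adjusted p = 0.000263 and 0.000158). Etfdh, which passes electrons from fatty acid oxidation to ubiquinone, rose by 1.19 and 1.26 and its partner Etfb by 0.56 and 0.62, while Coq10b fell by 0.65 and 0.73. Cytochrome c (Cycs) and Cyc1, the cytochrome subunit of complex III that carries another symbol, were not called. Between the PGCLCs 0 of the 13 were called by limma (at an unadjusted p below 0.05, 0 higher and 1 lower).

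Assembly factors under other symbols (29 tested) were higher at 9 and lower at 6 in Nanog PGCLCs (median 0.15), and at 11 and 5 in cytokine PGCLCs (median 0.23). Lyrm2, Coa4 and Timmdc1 rose by 0.71 to 0.90 in Nanog and 0.92 to 1.00 in cytokine PGCLCs. Oxa1l, which inserts proteins into the inner membrane, Ecsit and the copper protein Sco1 fell by 0.57 to 0.74 and 0.56 to 0.70. Atpaf2, which assembles the F1 head, was the one called between the PGCLCs (-0.56, limma adjusted p = 0.00603).

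Genes of the tricarboxylic acid cycle and pyruvate dehydrogenase (20 tested) were higher at 4 and lower at 6 in Nanog PGCLCs (median 0.11), at 6 and 5 in cytokine PGCLCs (median -0.02) and at 3 and 1 between them (median 0.08). Pdk1, the kinase that switches pyruvate dehydrogenase off, read 8.19 and 8.41 (mESC arrays), 9.21 and 9.24 (cytokine arrays) and 10.19 and 10.14 (Nanog arrays). The 3 groups were far apart, and Nanog PGCLCs exceeded mESCs by 1.86 ± 0.102 SE and cytokine PGCLCs by 0.94 (limma adjusted p = 4.40e-06 and 0.000570). Idh3a, a subunit of NAD-linked isocitrate dehydrogenase, read 8.36 and 8.30, then 7.12 and 6.92, then 7.88 and 7.79. It was lower by 1.31 in cytokine PGCLCs and 0.50 in Nanog PGCLCs against mESCs. Its cytokine values were as dim as those of Cox4i2, and 17 of the 20 genes were detected in cytokine PGCLCs. The fall of 1.31 therefore lies near the floor and may be only a bound.

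Regulators of respiratory genes (15 tested) were higher at 3 and lower at 3 in Nanog PGCLCs, and at 5 and 2 in cytokine PGCLCs. Nrf1, whose letters were searched in the promoters, fell by 0.53 in Nanog (limma adjusted p = 0.00184) and 0.25 in cytokine PGCLCs (limma adjusted p = 0.0475), and Gabpa, the DNA-binding subunit of the ETS complex, fell by 0.59 in Nanog PGCLCs (limma adjusted p = 0.00286). Tfb1m, a methyltransferase of the mitochondrial ribosome, rose by 1.16 and 1.30, and its paralog Tfb2m, which starts mitochondrial transcription, fell by 0.45 and 0.75. Tfam, which packages mitochondrial DNA, was not called (0.08 and -0.13). In the list of mitochondrial DNA and RNA handling (15 tested), 4 were higher and 2 lower in Nanog and 5 and 1 in cytokine PGCLCs, led by Dguok, a deoxynucleoside kinase, at 1.63 and 1.47.

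Of 16 tested genes of protein import, 2 were higher and 2 lower in Nanog PGCLCs and 4 and 2 in cytokine PGCLCs, with medians of -0.00 in both, and the outer membrane pore gene Tomm40 fell by 0.68 and 0.69. Of 8 tested hypoxia-induced genes, 4 were higher and 1 lower in Nanog PGCLCs and 5 and 0 in cytokine PGCLCs (at an unadjusted p below 0.05, also 0 lower by limma), among them Pdk1 and Egln3. Of 6 tested carriers and pores, 0 were higher and 3 lower in both kinds of PGCLC against mESCs by limma (at an unadjusted p below 0.05, 0 and 1 higher). These 3 were the creatine kinase Ckmt1 and the outer membrane channels Vdac1 and Vdac2. All 3 were higher in Nanog than in cytokine PGCLCs (0.89, 0.46 and 0.41, limma adjusted p = 0.000450, 0.0106 and 0.0131). Of the 6 carriers and pores, 5 were detected in cytokine PGCLCs and 6 in each other group. Where a gene was not detected, its p-values rest on undetected signal and its change is only a bound. Vdac1 read 13.18 and 13.09 (mESC arrays), 12.37 and 12.44 (cytokine arrays) and 12.81 and 12.91 (Nanog arrays), with the Nanog arrays between the other groups.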

How the data were processed

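Illumina mouse BeadChips measured RNA of 6 samples, grouped by their labels into 3 groups of 2. Biotin-labelled cRNA was made with the Ambion MessageAmp kit, per the labels' protocols. The deposited intensity values are, per the file headers and the values, raw summaries of 45281 probes. Each deposited detection p-value, named so per the file headers, is a multiple of a step that implies 936 negative controls per array. The authors' log2 value table lists 11542 probes and was quantile normalized, from its values; limma is named without a version in the submitters' processing notes. How its background was treated was not given in the sources used here.

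Intensities were background corrected (normexp on detection p-values, offset 16), quantile normalized and log2 transformed with limma 3.58.1 in R 4.3.3. A probe was kept if detected (p below 0.01) on 2 or more arrays, which left 10673. Names came from the platform annotation (10057 probes with 1 symbol, 4 with several, 1481 with none), and all 116 member probes matched RefSeq by Entrez identifier. The brightest named probe stood for a gene (6823 genes). Detection on neither array of a group was read as a bound. The 3 groups were fitted in 1 limma model (3 residual and 5.16 prior degrees of freedom), with two-sided p-values adjusted by Benjamini and Hochberg's method across the 6823 genes and calls below 0.05. The workflow was tested on simulated data. The number of arrays limits the precision.

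Members, lists and alternatives were chosen with earlier results of these data known. Array values were given for isoform pairs, for up to 3 called members with the largest change per class, comparison and direction, and for members with opposed probes; of other lists, those lowest in adjusted p were named, at most 3 per direction. Cycs, Cyc1, Tfam, Des, Neurod1 and, where not among those, other list genes were named after their values were seen. Fibroblast and endoderm markers had no named probe here. The neural marker Neurod1, 1 of 4 with a name, was not called (0.04 in Nanog and -0.10 in cytokine PGCLCs against mESCs). Alternatives were other background corrections (none, or an offset of 50), normalizations, filters, probe choices, a variance trend, the authors' table, the replicate number as a block, and each array left out.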

Additional observations from a re-analysis of the deposited data

How the results depend on the processing

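Against mESCs, median scaling gave 3 lower calls in Nanog PGCLCs (11 as reported) and 5 in cytokine PGCLCs (8), and the other full-data alternatives gave counts within 1.5 times of those reported, with up to 41 higher and 14 lower in Nanog PGCLCs. Between the PGCLCs the 3 lower calls became 12 without background correction and with a variance trend, 11 in the authors' table, 7 with detection on all 6 arrays, 6 with an offset of 50 or the mean of a gene's probes, and 1 with median scaling; the causes were not tested. Leaving out 1 array gave, for Nanog PGCLCs against mESCs, 16 (without mESC replicate 2) to 23 higher and 3 (without mESC replicate 2 or Nanog replicate 2) to 9 lower calls. It gave 18 higher and 4 lower without Nanog replicate 1. For cytokine PGCLCs it gave 19 (without cytokine replicate 1) to 31 higher and 4 (without the same array) to 8 lower, and between the PGCLCs 1 (without cytokine replicate 1) to 7 higher and 0 (without any PGCLC array but Nanog replicate 1) to 5 lower (without either mESC array). Without cytokine replicate 2, Nanog replicate 1 and Nanog replicate 2 the last comparison gave 2, 2 and 3 higher, and 1 lower without Nanog replicate 1. Fewer arrays enter those fits. Calls kept under every alternative numbered 13 of 28 higher and 1 of 11 lower (Nanog against mESCs), 16 of 29 and 3 of 8 (cytokine against mESCs), and 1 of 9 and 0 of 3 (between the PGCLCs). Ndufb2, counted as kept in all 3 comparisons, was not tested where detection on all 6 arrays was required. Called members that turned were Ndufb10 (0.048) and Ndufb7 (0.015) under median scaling in Nanog PGCLCs against mESCs, and Atp5j (-0.320) under the mean of its probes in cytokine PGCLCs against mESCs.

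With the replicate number as a block, members were higher and lower at 26 and 10 (Nanog against mESCs), 32 and 8 (cytokine against mESCs), and 8 and 4 (between the PGCLCs). Same-numbered arrays did not deviate together (r = 0.036, 0.079 and -0.004 over all genes), so the numbers were not taken to pair them. With 2 arrays a group, precision is limited, and dim probes such as those of Ndufb2 and Atp5e carry little signal over background.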
